A study of Mus musculus with 4 samples.

Results

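The genes described here are 9 transcription factor genes outside the Hox clusters that mark position along the body or within a limb: Pitx1, Tbx4, Tbx5, Tbx15, Tbx18, Meis1, Meis2, Emx2 and Prrx1. They were chosen by name, with earlier results of these arrays known. Every probe set whose annotation gave 1 of these symbols and no other was taken, which gave 24 probe sets among the 45101 on the array, and the 9 genes were among 18193 genes with such a probe set. The probe set with the highest mean signal over the 4 arrays represented each gene, so the level itself was used in the choice and is given as a description. In the VEGFD group, with 2 arrays, the mice carried flank tumours of 293EBNA cells, a line derived from human embryonic kidney, whose Apex expression vector held VEGFD, the gene of a secreted growth factor for lymphatic and blood vessels. In the Apex group, with 2 arrays, the tumour cells carried the Apex vector without an insert. Mice of both groups had tumours grown to 2000 mm3, Patent Blue V injected to show the draining collecting lymphatics, dissection of those vessels and magnetic sorting for endothelial cells. Strain, age and sex of the mice, and whether a replicate was 1 mouse or a pool, are not stated in the labels, so p-values measure only the spread between these arrays.

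Cells of the connective tissue and vessel wall keep a record of where in the embryo they arose, in the set of homeobox and T-box transcription factors they go on expressing. Pitx1 is switched on in the hindlimb bud and drives the T-box gene Tbx4 there, while Tbx5 is the corresponding T-box gene of the forelimb bud. Meis proteins bind DNA together with Pbx and Hox proteins and mark the upper part of the limb, and Prrx1 marks limb bud mesenchyme as a whole. The collecting lymphatics studied here drained tumours of the flank, which lies between the limbs.

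Signals are in the deposited linear units, in which each array had a mean of 150.0 after the highest and lowest 2% of probe sets were left out. Differences are VEGFD minus Apex of log2(signal + 16), with the standard error (SE) and the 95% interval from limma, and n = 2 arrays in each group throughout. A gene was tested when its mean log2 value reached the median of all probe sets other than controls, 5.37, which is a signal of 25.3. The arrays had median signals of 26.3 and 23.8 in the VEGFD group, against 27.0 and 30.4 in the Apex group. The defining markers Pecam1 and Cdh5 went against the endothelial label on 3 of the 4 arrays. Pecam1, which encodes CD31, had 3.25 and 2.22 in VEGFD arrays, against 2.92 and 141 in Apex arrays. Cdh5, which encodes VE-cadherin, had 4.23 and 3.11 in VEGFD arrays, against 13.0 and 146 in Apex arrays. Of 12 pan-endothelial markers, 6 and 3 reached a signal of 25.3 in VEGFD arrays, against 6 and 12 in Apex arrays. Eng, Kdr and Egfl7 of this list reached it on all 4 arrays. Prox1, the gene that sets lymphatic identity, stayed under 25.3 everywhere, with 3.19 and 5.94 in VEGFD arrays and 11.2 and 11.6 in Apex arrays. Lyve1, the hyaluronan receptor of lymphatics, had 22.0 and 14.5 in VEGFD arrays, against 16.5 and 151 in Apex arrays. Pdpn, Flt4 and Nrp2, which other cell types also express, reached 25.3 on all 4 arrays. Of 7 lymphatic markers with a probe set, 4 and 4 reached it in VEGFD arrays, against 3 and 5 in Apex arrays. The fibroblast genes Col1a2, with 6122 and 6623 in VEGFD arrays against 5555 and 6846 in Apex arrays, and Pdgfra, with 1493 and 729 against 1158 and 727, were bright on all 4. None of the markers in the 9 cell type lists had a signal of exactly 0. In such mixed samples fewer cells of a type and less RNA per cell cannot be told apart. The plot of marker lists shows the summed signal of each list.

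**Figure D1:**
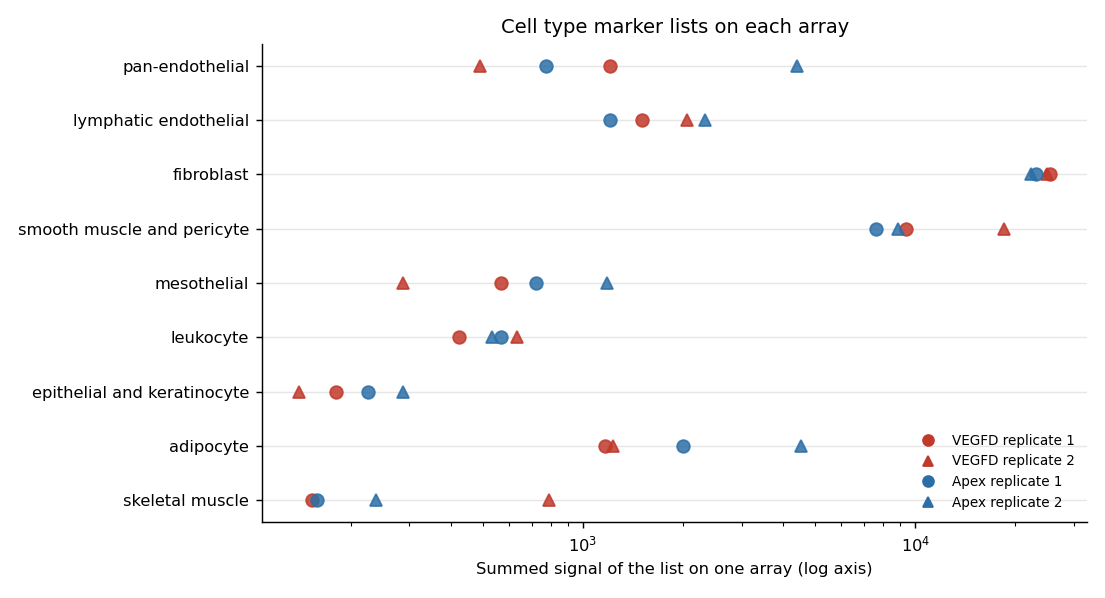
Summed signal of 9 cell type marker lists (log axis) on each array, with VEGFD arrays in red and Apex arrays in blue, circles for replicate 1 and triangles for replicate 2. The pan-endothelial list summed to 1207 and 490.2 in VEGFD arrays, against 773 and 4406 in Apex arrays, while the fibroblast list stayed between 22345 and 25446.

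The genes of limb type were dim. Pitx1 and Tbx4 had lower values in both VEGFD arrays than in either Apex array, but Pitx1 reached the filter only through its Apex arrays and Tbx4 did not reach it. Pitx1 had signals of 3.14 and 25.8 in VEGFD arrays, against 57.5 and 49.4 in Apex arrays. The groups did not overlap, and the signals of the VEGFD arrays lay farther apart than those of the Apex arrays. The difference was -1.29 ± 0.44 (SE), with an interval of -2.41 to -0.18, and it did not pass over all genes (adjusted p = 0.823). The other Pitx1 probe set had 22.0 and 16.7 in VEGFD arrays, against 28.8 and 34.2 in Apex arrays, again without overlap, and a smaller difference of -0.43. The size of the Pitx1 difference was -0.73 without VEGFD replicate 1 (adjusted p = 0.335), -0.60 with 64 added in place of 16 before the log, and -0.86 with both probe sets averaged. With 1 added in place of 16, Pitx1 no longer reached the filter, which its mean of 5.47 exceeded by little.

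Tbx4, the hindlimb T-box gene that Pitx1 drives, had signals of 6.09 and 8.005 in VEGFD arrays, against 22.6 and 18.3 in Apex arrays. Every value lay under the signal of the filter, so the gene was not tested, and the groups did not overlap. Its difference was -0.66, with 64 added before the log it was -0.25, and with 1 added it was -1.42. With no filter the limma adjusted p was 0.821. The second Tbx4 probe set had 2.18 and 4.74 in VEGFD arrays, against 5.22 and 14.0 in Apex arrays. At such signals no detection call was used, so neither presence nor absence of the transcript can be read from them.

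Tbx5, the forelimb and heart T-box gene, was also below the filter. It had signals of 20.9 and 6.75 in VEGFD arrays, against 34.9 and 9.31 in Apex arrays. In each group replicate 1 was the brighter array, and the groups overlapped. Its difference of -0.31 turned to 0.20 when Apex replicate 1 was left out and to 0.04 when VEGFD replicate 2 was. The second probe set, with 13.6 and 2.84 in VEGFD arrays against 1.41 and 10.9 in Apex arrays, had a difference of the other sign, 0.13. The arrays therefore gave no order of the groups for Tbx5. The plot of signals by array shows all probe sets of these genes.

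**Figure D2:**
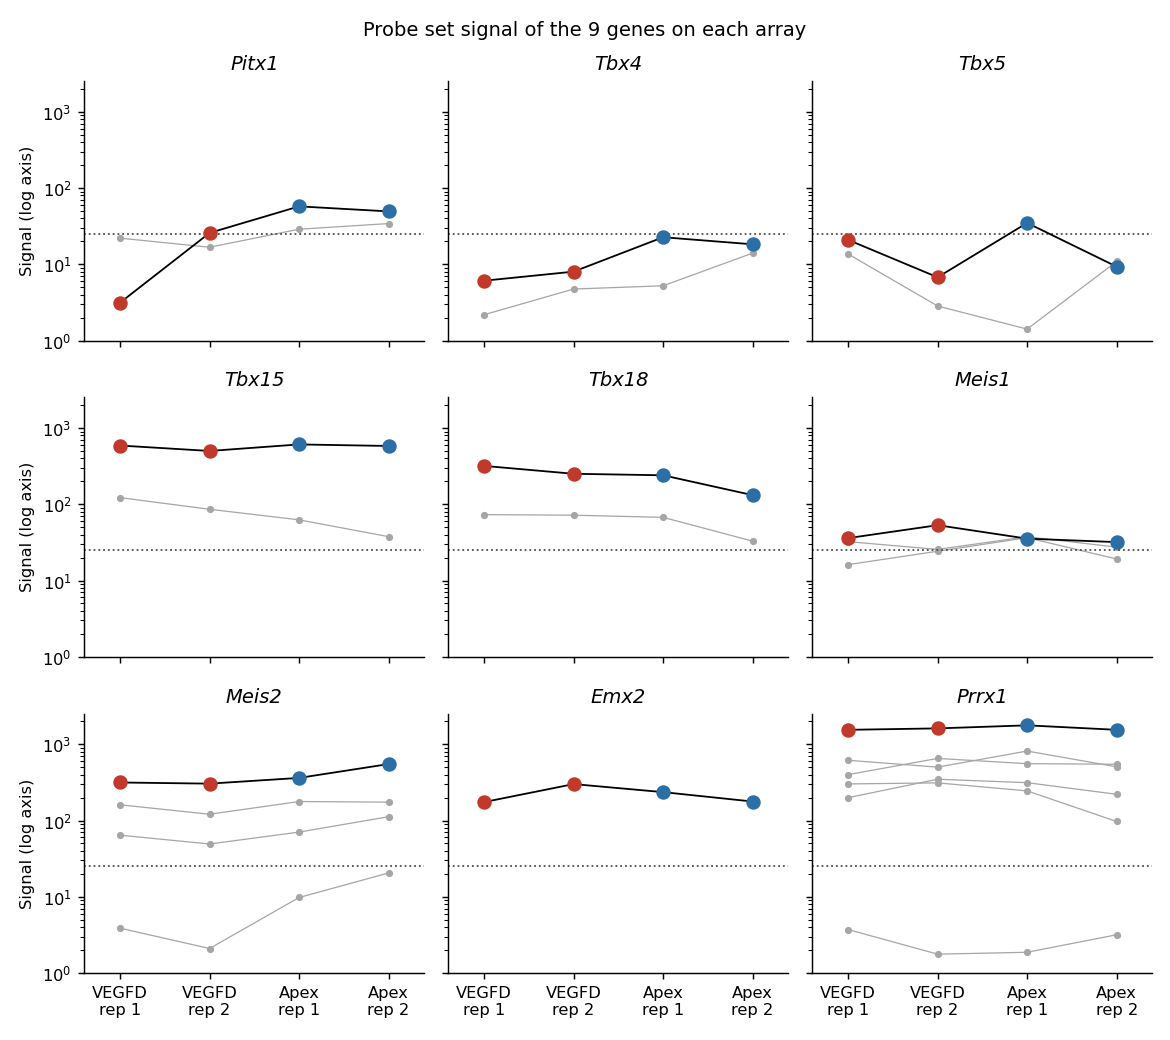
Signal (log axis) of every probe set of the 9 genes on each array. Large points joined by a black line are the representative probe set, red in VEGFD arrays and blue in Apex arrays, small grey points are the other probe sets, lines only join the arrays of 1 probe set, and the dotted line is the filter at a signal of 25.3. Pitx1 and Tbx4 have VEGFD points below both Apex points, while Prrx1 and Tbx15 are level at their representative probe sets.

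Tbx15 and Tbx18 are sister T-box genes of trunk and limb mesenchyme. Tbx15 patterns the dermis of the back and skeletal elements, and Tbx18 is active in somites, in the outer layer of the heart and in mural cells of vessels. Tbx15 had signals of 590.0 and 501 in VEGFD arrays, against 610.0 and 582 in Apex arrays. The groups overlapped, and the difference was -0.13 ± 0.22 (SE), with an interval of -0.69 to 0.43 (adjusted p = 0.910). The interval leaves room for a level between 0.619 and 1.35 times that of the Apex group on the log2(signal + 16) scale. The second Tbx15 probe set went the other way, with 122 and 86.0 in VEGFD arrays against 62.5 and 37.6 in Apex arrays, a difference of 0.87 without overlap. The mean of both probe sets differed by 0.37. The name of the second probe set carries the suffix for probes shared between transcripts, as that of the representative Meis2 probe set does, so each may detect more than 1 transcript.

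Tbx18 had signals of 319 and 251 in VEGFD arrays, against 240.2 and 132 in Apex arrays. The groups did not overlap, but VEGFD replicate 2 and Apex replicate 1 were close to each other and the low value was that of Apex replicate 2. The difference was 0.62 ± 0.34 (SE), with an interval of -0.25 to 1.49, and did not pass (adjusted p = 0.825). The second probe set had the same order, with 73.2 and 72.0 in VEGFD arrays against 67.4 and 32.9 in Apex arrays, and a difference of 0.47. Without Apex replicate 2 the Tbx18 difference was 0.22, and without Apex replicate 1 it was 1.02. Apex replicate 2 was also the array with the highest pan-endothelial sum, 4406, and the highest adipocyte sum, 4517, and the part of these cells in the Tbx18 value was not tested. Markers of mural cells did not share 1 direction. Of the 8 tested smooth muscle and pericyte markers 5 were higher and 3 lower in VEGFD arrays, with differences from -1.33 to 2.34. Acta2 had 4840.4 and 8802 in VEGFD arrays, against 3525 and 4096 in Apex arrays. The pericyte gene Pdgfrb had 2123 and 1268 in VEGFD arrays, against 2978 and 3479 in Apex arrays. Myh11 did not reach 25.3 on any array.

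The TALE homeobox genes Meis1 and Meis2 encode partners of Hox proteins. Meis2 had signals of 316 and 305 in VEGFD arrays, against 362 and 551 in Apex arrays. All 4 of its probe sets had lower signals in both VEGFD arrays than in either Apex array. The differences were -0.54 to -0.30 at 3 of them, and -0.69 at the last, which lay under 25.3 on every array. Of the 8 genes with more than 1 probe set, 4 had groups without overlap in 1 direction at each of them, Pitx1, Meis2 and Tbx18, and also Tbx4, whose probe sets lay under 25.3 on every array. Of all 9010 genes with several probe sets 7.45% did so, and the 8 were chosen with results of these arrays known. The representative Meis2 probe set differed by -0.51 ± 0.28 (SE), with an interval of -1.21 to 0.20, and did not pass (adjusted p = 0.825). Leaving out Apex replicate 2 gave -0.21, and leaving out Apex replicate 1 gave -0.80. The second Meis2 probe set by brightness did not follow Apex replicate 2, with 161 and 121 in VEGFD arrays against 178 and 174 in Apex arrays. The probe sets of 1 gene were read from the same RNA and are not replicates.

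Meis1 lay near the filter on every array. It had signals of 36.0 and 53.2 in VEGFD arrays, against 35.4 and 31.9 in Apex arrays. The lower VEGFD value and the higher Apex value were almost equal. The difference was 0.27 ± 0.29 (SE), with an interval of -0.47 to 1.01 (adjusted p = 0.861). The other 2 Meis1 probe sets had overlapping groups and differences of -0.10 and -0.26, and the mean over its probe sets differed by -0.03.

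Emx2 and Prrx1 are homeobox genes with roles well beyond the limb. Emx2 patterns the cerebral cortex and the urogenital tract and is needed for the shoulder blade, and Prrx1 is a gene of mesenchyme in limb, face and connective tissue. Emx2 had signals of 175 and 301 in VEGFD arrays, against 236 and 178 in Apex arrays. The VEGFD values enclosed both Apex values, and the difference was 0.15 ± 0.34 (SE), with an interval of -0.70 to 1.01 (adjusted p = 0.926). Leaving out Apex replicate 2 gave -0.04, leaving out VEGFD replicate 2 gave -0.21, and leaving out VEGFD replicate 1 gave 0.52. Emx2 had 1 probe set, so no second one could check it.

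Prrx1 had the smallest difference of the 7 tested genes. It had signals of 1549 and 1618 in VEGFD arrays, against 1773 and 1549 in Apex arrays. The groups overlapped, and the difference was -0.07 ± 0.21 (SE), with an interval of -0.59 to 0.46 (adjusted p = 0.950). The interval leaves room for a level between 0.664 and 1.37 times that of the Apex group on the same scale. Its sign turned to 0.06 with each array centred on its median, 0.03 without Apex replicate 1 and 0.09 with probe sets averaged. Of its 6 probe sets 1 was without overlap, at 302 and 312 in VEGFD arrays against 245 and 97.2 in Apex arrays, a difference of 0.91. The other 5 differed by -0.20 to 0.02, and 1 of these, with a mean signal of 2.63, was dim on every array. The plot of differences by probe set shows each of them.

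**Figure D3:**
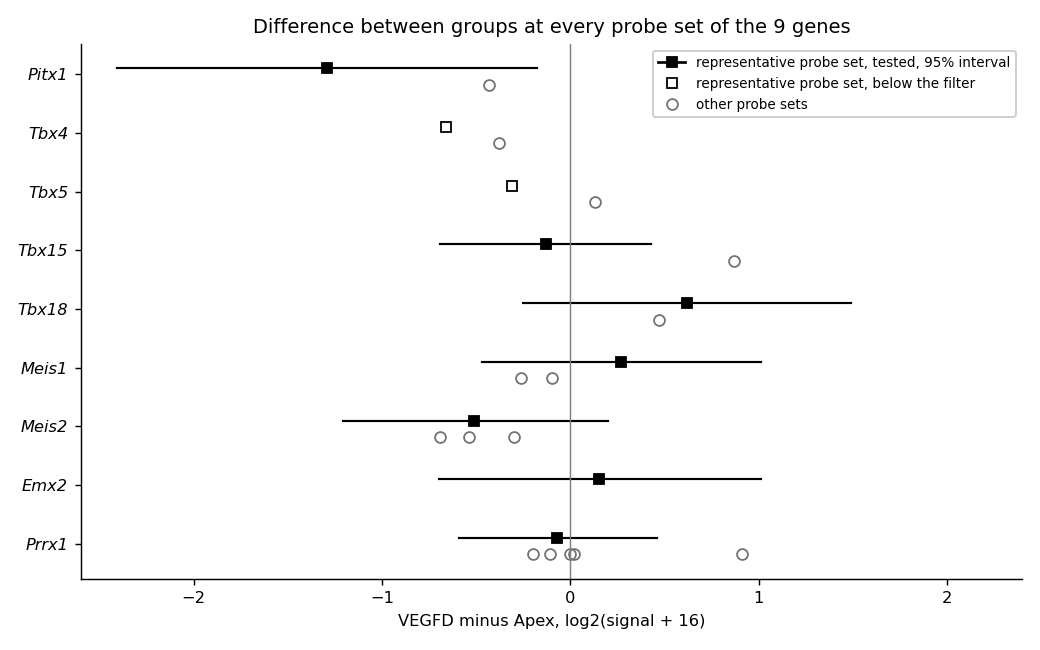
Difference in log2(signal + 16), VEGFD minus Apex, for each probe set of the 9 genes. Squares are representative probe sets, filled with the 95% interval of the limma fit where the gene was tested and open where it lay below the filter, and circles are the other probe sets. The interval of Pitx1, -2.41 to -0.18, lies to the left of 0, and the other 6 intervals span 0. Intervals are not adjusted for the number of genes tested. Pitx1 did not pass over all genes (limma adjusted p = 0.823) and reached the filter only through its Apex arrays.

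Upstream sequences are shown for 5 of the genes, so that Prrx1, Emx2, Meis2 and Tbx18, whose representative probe sets exceeded the filter signal on all 4 arrays, can be set beside Tbx4, which exceeded it on none. RefSeq's table of promoters on GRCm38.p6 held 6 of the 9 genes, and the window of Meis1, whose signals lay near the filter, is not printed. The 250 bases before the transcript start are printed, 5′ to 3′ on the strand of the gene. Capitals mark matches on either strand to 5 motifs, the Meis-type site TGACAG, the T-box site GGTGTGA, the homeodomain site TAATTA, the Pitx-type site TAATCC and the TATA box TATAAA. Windows of Tbx18 and Emx2 lie upstream of the annotated gene, and those of Prrx1, Meis2 and Tbx4 lie within it, before an inner start.
Prrx1, chr1:163313651-163313900, minus strand: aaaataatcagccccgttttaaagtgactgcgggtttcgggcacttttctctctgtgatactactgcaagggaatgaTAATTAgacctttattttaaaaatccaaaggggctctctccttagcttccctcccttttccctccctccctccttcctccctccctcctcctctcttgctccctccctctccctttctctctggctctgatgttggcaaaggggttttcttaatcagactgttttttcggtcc
Emx2, chr19:59458440-59458689, plus strand: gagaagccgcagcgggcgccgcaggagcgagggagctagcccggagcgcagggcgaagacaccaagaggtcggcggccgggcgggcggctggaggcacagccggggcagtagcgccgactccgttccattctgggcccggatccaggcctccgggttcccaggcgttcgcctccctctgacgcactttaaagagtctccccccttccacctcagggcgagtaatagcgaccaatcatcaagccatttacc
Meis2, chr2:116064620-116064869, minus strand: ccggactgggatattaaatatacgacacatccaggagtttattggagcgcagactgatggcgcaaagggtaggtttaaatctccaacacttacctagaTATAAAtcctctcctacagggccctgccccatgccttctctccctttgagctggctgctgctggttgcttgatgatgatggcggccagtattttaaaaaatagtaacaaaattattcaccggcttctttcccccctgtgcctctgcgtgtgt
Tbx18, chr9:87731261-87731510, minus strand: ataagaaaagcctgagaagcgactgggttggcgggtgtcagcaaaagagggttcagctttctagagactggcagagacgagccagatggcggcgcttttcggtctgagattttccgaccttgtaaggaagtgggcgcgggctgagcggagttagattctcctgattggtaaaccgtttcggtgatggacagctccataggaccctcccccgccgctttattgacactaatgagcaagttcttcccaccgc
Tbx4, chr11:85896515-85896764, plus strand: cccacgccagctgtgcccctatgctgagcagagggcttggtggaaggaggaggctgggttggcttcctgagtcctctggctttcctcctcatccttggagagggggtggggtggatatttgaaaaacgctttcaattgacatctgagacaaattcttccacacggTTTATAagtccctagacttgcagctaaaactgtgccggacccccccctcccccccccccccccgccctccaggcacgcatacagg

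Prrx1 held the homeodomain letters 173 bases before its start. Those letters are found in 4.84% of 32841 windows of the same length. The TATA letters stood 152 bases before the start in Meis2 and, on the other strand, 85 bases before it in Tbx4, and 12.37% of all windows hold them. No window of the 6 genes held the Meis-type, T-box or Pitx-type letters, which 15.86%, 3.33% and 6.25% of all windows hold, and none of these motifs overlapped another. The windows differed more in base composition. CpG pairs reached 0.85 of the number that base content gives in Emx2 and 0.84 in Tbx18, against 0.60 in Meis1, 0.50 in Meis2, 0.32 in Prrx1, 0.28 in Tbx4 and a median of 0.37 over all windows. Prrx1, which exceeded the filter on all arrays, and Tbx4, which did not on any, thus both had ratios under that median. Emx2 and Tbx18, with the higher ratios, have the windows upstream of the annotated gene, and the other windows, that of Meis1 included, lie within it. Gene and window placement therefore cannot be told apart in these ratios.

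Counted together, 7 of the 9 genes were tested, 3 with a positive and 4 with a negative difference, and 0 passed at an adjusted p of 0.05. At an unadjusted p under 0.05 there was 1 of the 7, Pitx1, which reached the filter only through its Apex arrays. Over all 11677 tested genes 0 passed, or 0% (666 at an unadjusted p under 0.05). At least 2-fold lower without overlap was 1 of the 7, Pitx1, where 2.79% of all tested genes were, and 0 of the 7 were at least 2-fold higher without overlap, where 1.09% were. Without overlap at any size, 2 of the 7 were lower in VEGFD arrays (Pitx1 and Meis2), where 21.8% of tested genes were, and 2 were higher (Tbx18 and Meis1), where 16.6% were. With 7 genes, a single gene accounts for each departure from the background shares. The median difference of the 7 was -0.07, against -0.04 over all tested genes. With each array centred on its median the median over all tested genes was 0.09, that of the 7 was 0.06, and the 2-fold genes split into 192 higher and 239 lower in place of 127 and 326. With 2 arrays a group, permuting the labels exactly allows 3 splits and no p under 0.333.

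Genes of the same families and of the limb bud were taken from 4 lists, and none of their members passed over all genes. Of 13 other T-box genes 11 had a probe set and 4 were tested, 2 higher and 2 lower, with a median of 0.07. Tbx19, a pituitary T-box gene, had signals of 32.1 and 30.2 in VEGFD arrays, against 44.7 and 41.5 in Apex arrays, and a difference of -0.33 ± 0.27 (SE). Tbx3, which patterns limb and mammary gland, had 34.6 and 86.8 in VEGFD arrays, against 37.7 and 49.5 in Apex arrays. Its difference of 0.28 ± 0.41 (SE) rested on VEGFD replicate 2 and was -0.23 without it. Of 16 other TALE homeobox genes 12 were tested, 6 higher and 6 lower, with a median of -0.11. Mkx, a tendon gene, had 56.6 and 6.36 in VEGFD arrays, against 60.3 and 66.6 in Apex arrays. Its mean log2 value in the VEGFD group, 5.33, lay under the filter of 5.37, so it was tested only through its Apex arrays. The Mkx difference of -0.98 ± 0.58 (SE) came down to -0.13 without VEGFD replicate 2. Irx3, an Iroquois gene of the proximal limb, had 31.6 and 88.2 in VEGFD arrays, against 83.4 and 158 in Apex arrays. The groups overlapped, with a difference of -0.90 ± 0.49 (SE) that was -0.33 without VEGFD replicate 1.

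Of 13 other paired-type and Emx-type genes 3 were tested and all 3 had negative differences, with a median of -0.33. Of all 11677 tested genes 6260 had negative differences. Pitx3, at -0.09, and Shox2, at -0.33, had overlapping groups. Prrx2, the paralogue of Prrx1 in mesenchyme, had signals of 26.9 and 47.8 in VEGFD arrays, against 61.2 and 137 in Apex arrays. The groups did not overlap, and the difference was -1.05 ± 0.43 (SE; adjusted p = 0.823). It was -0.56 without Apex replicate 2 and -0.65 with 64 added before the log. The interval of Prrx2, -2.14 to 0.03, and that of Prrx1, -0.59 to 0.46, overlapped, and the difference between the paralogues was not tested.

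Limb bud partner genes gave the widest differences of these lists. Of 30 named genes 18 were tested, 5 higher and 13 lower, where 5417 of all tested genes were higher and 6260 lower. Their median was -0.31, and it was -0.03 when Apex replicate 2 was left out and -0.54 when Apex replicate 1 was. Hand2, which sets the posterior side of the limb bud, had signals of 96.9 and 20.9 in VEGFD arrays, against 336 and 341 in Apex arrays. The Apex values were nearly equal and both VEGFD values lay far below them, with a difference of -2.46 ± 0.55 (SE) and an interval of -3.83 to -1.08 (adjusted p = 0.767). Leaving out VEGFD replicate 2 gave -1.65 and averaging its probe sets gave -1.02. Leaving out VEGFD replicate 1 gave -3.27 with a limma adjusted p of 0.00685, in a fit that holds no spread between VEGFD arrays. Marker lists whose tested genes were all lower were the adipocyte list (3 of 3, median -1.30), the mesothelial list (3 of 3, -0.74) and the pan-endothelial list (7 of 7, -0.53). The epithelial and keratinocyte list had 3 of 4 lower and -0.76, the lymphatic list 2 of 4 and -0.45, and the skeletal muscle list 2 of 3 and -0.23. Some of the lower genes in these lists reached the filter only through their Apex arrays, so the filter set their direction. Adipoq, Robo4, Krt5 and Lyve1 were such genes, with both VEGFD signals under 25.3. Adipoq had 12.7 and 12.5 in VEGFD arrays, against 38.3 and 145 in Apex arrays. The other lists had positive medians. Of the untested mesothelial markers, Upk3b and Lrrn4, under 25.3 on every array, were higher in both VEGFD arrays than in either Apex array. Wt1, also untested, had 38.3 and 12.0 in VEGFD arrays, against 14.0 and 5.79 in Apex arrays. Summed signals were 1164 and 1227 in VEGFD arrays against 2001 and 4517 in Apex arrays for the adipocyte list, and 565 and 287 in VEGFD arrays against 724 and 1184 in Apex arrays for the mesothelial list. The pan-endothelial sum was 1207 and 490.2 in VEGFD arrays, against 773 and 4406 in Apex arrays, so the groups overlap. The part of such cells in the values of the limb bud genes was not tested. Twist2, a gene of dermal mesenchyme, had 168 and 415 in VEGFD arrays, against 461 and 680.2 in Apex arrays, and a difference of -1.03 ± 0.46 (SE), which was -0.42 without VEGFD replicate 1. Of 33 Hox genes with a probe set, 18 were tested. At least 2-fold apart without overlap were 7 higher and 4 lower Hox genes, where 1.09% and 2.79% of all tested genes were, and 0 passed. The plot of family and partner genes sets these lists beside the body-position genes.

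**Figure D4:**
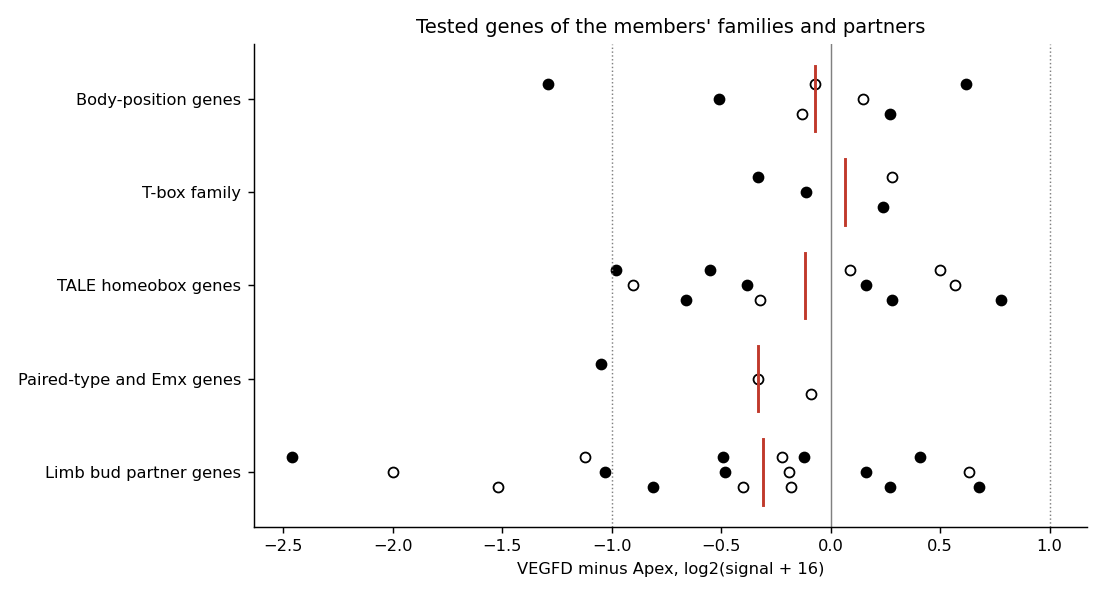
Difference in log2(signal + 16), VEGFD minus Apex, for each tested gene of the body-position genes and of 4 related lists. Filled points are genes whose groups did not overlap, open points overlapped, red bars are list medians and dotted lines mark a 2-fold difference. Pitx1 (-1.29), Prrx2 (-1.05), Hand2 (-2.46) and Twist2 (-1.03) are the filled points beyond 2-fold.

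Profiles over the 4 arrays were compared for Pitx1 and Tbx18, the tested genes whose log2 values spanned at least 1. The measure was the root mean square distance between log2 profiles centred on each gene's mean, over 4 arrays. Nearest to Pitx1 was Mustn1, a gene of muscle and skeletal tissue, at 0.079, with signals of 29.6 and 76.7 in VEGFD arrays against 142 and 145 in Apex arrays. Next was the Hox gene Hoxc10, at 0.109, with 52.7 and 151 in VEGFD arrays against 222 and 218 in Apex arrays. Both were picked from all tested genes for this likeness, so their shared low signal in VEGFD replicate 1 and their differences, -1.30 ± 0.40 (SE) and -1.14 ± 0.46 (SE), follow from the choice. Nearest to Tbx18 were Cfc1, a co-receptor gene of Nodal signalling, at 0.033 and Ghitm, which encodes a protein of the inner mitochondrial membrane, at 0.038. Cfc1 had 48.2 and 33.8 in VEGFD arrays, against 32.5 and 13.3 in Apex arrays, and Ghitm had 2582 and 2106 in VEGFD arrays, against 1909 and 1081 in Apex arrays. Their low array, Apex replicate 2, and their differences of 0.58 and 0.69 likewise follow from the choice.

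**Figure D5:**
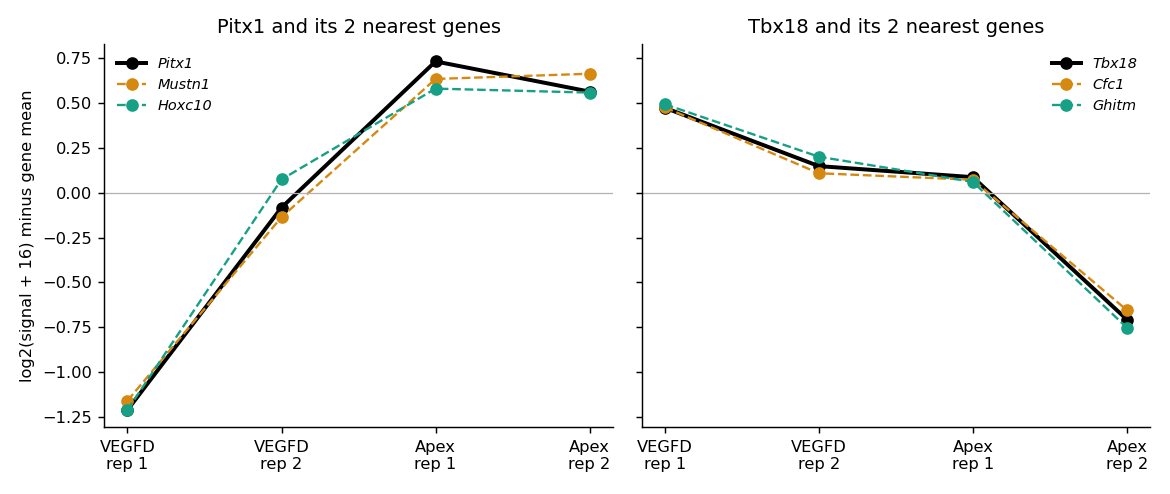
Log2(signal + 16) minus the gene's mean on each array for Pitx1 and Tbx18 (black) and the 2 tested genes nearest to each (dashed). The Pitx1 group of lines is lowest in VEGFD replicate 1, and the Tbx18 group is lowest in Apex replicate 2.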

How the data were processed

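Total RNA of 4 samples was labelled with biotin and hybridised to Affymetrix mouse arrays, per the labels' protocols. The labels name collecting lymphatic endothelium, except that the extraction protocol names that of lymph nodes. Each deposited value is an intensity on a linear scale for 1 probe set (probe summary algorithm not given in the sources used here). No detection calls were used. Probe sets were named by the platform annotation, which gave 34945 of them 1 gene, 932 several genes and 9160 none. The reference gene table on GRCm38.p6 held the gene ID of 34741 probe sets with 1 gene. The build behind the array is not given, so the positions printed are those of RefSeq's promoter windows on GRCm38.p6, not of probe sets.

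Genes were represented by the probe set with the highest mean signal, and values were used as log2(signal + 16), which understates differences of dim genes. Genes whose mean reached 5.37 were fitted with limma 3.58.1 in R 4.3.3 (lmFit, eBayes with intensity trend), with two-sided p-values adjusted by Benjamini-Hochberg over 11677 genes and a threshold of 0.05. The fit was tested on simulated data. The number of arrays limits precision. Members, gene lists and marker lists were chosen with earlier results of these data known. Named list genes were those at least 2-fold apart without overlap, at most 4 of a list, or else the 2 with the largest difference. The 2 genes nearest in profile (predicted genes left out) were named for members spanning at least 1 on the log2 scale, and the first 2 genes of marker lists were examples. Alternatives covered scaling, pseudocount, filter, probe set averaging, trend, replicate block and leaving out each array.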

Additional observations from a re-analysis of the deposited data

How the results depend on the processing

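Under the 13 alternatives, 0 of the tested members passed in any. The direction held for Pitx1, Tbx4, Tbx18 and Meis2 wherever they had a value. Their groups did not overlap at any probe set, so only median centring or quantile normalization could have turned that direction. Under the other alternatives it was fixed in advance. Over all genes the number that passed was 6 with the replicate block and ran from 0 to 372 with 1 array left out (372 without VEGFD replicate 1, 4 without VEGFD replicate 2). With the replicate block no member passed either. Deviations of same-numbered arrays from their group means correlated at 0.197 over 11677 genes, which with 2 numbers does not show that they pair. The count of members at least 2-fold lower was 0 with a pseudocount of 1, a pseudocount of 64, the stricter filter and averaged probe sets, since Pitx1 then fell out of the tested genes or under 2-fold. With 1 array left out it ran from 0 to 1, and the count of members at least 2-fold higher from 0 to 1, where Tbx18 was the gene. Signs turned for Emx2 (-0.04 without Apex replicate 2, and -0.21 to 0.52 over the fits with 1 array left out), Meis1 (-0.03 with averaged probe sets), Tbx15 (0.37 with averaged probe sets), Prrx1 (0.06 with arrays centred on their medians, 0.09 with averaged probe sets, -0.16 to 0.03 with 1 array left out), Tbx5 (-0.81 to 0.20 with 1 array left out) and Tbx3 (-0.23 to 0.79 with 1 array left out). The cause of these turns was not tested. Signals near 25.3 or below, as of Tbx4, Tbx5 and Meis1, set the limit of what the arrays resolve.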
